A study of Chenopodium quinoa with 15 samples.

Results

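Gene expression in the vegetative leaf of quinoa (Chenopodium quinoa, variety NL-6) was set against root, stamen and pistil of the same variety. The comparison takes in 12 untreated RNA-seq libraries of 15 in the series: 3 of leaf, and 9 of the other organs with 3 each of root, stamen and pistil. The 3 libraries of NaCl-treated leaves were left out. Leaf libraries came from whole sets of leaves of seedlings that were 14 days old and grew on soil under long days. Roots came from seedlings that germinated in the dark on agar medium and were only days old (2 days in the sample labels, 3 days in the study's methods). For stamens and pistils, freshly opened flowers of older plants on soil were dissected. Each library pooled the organs of several plants. The labels name no transgene or mutation. According to the labels, controls of the salt experiment received water, which may apply to the leaf libraries. Organ, plant age, growth medium and light therefore cannot be told apart in this comparison. In such bulk samples, fewer cells of a type and less RNA per cell cannot be told apart either.

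A leaf is made mostly of mesophyll cells, whose chloroplasts capture light with chlorophyll-binding antenna proteins around photosystems I and II. The electrons pass through carriers such as plastocyanin and ferredoxin, and the ATP and NADPH that result drive carbon fixation by Rubisco and the Calvin cycle. The nuclear genome encodes the small subunit of Rubisco and most of the proteins that build and repair the chloroplast. Around the mesophyll lies an epidermis with stomata and a waxy cuticle. Roots take up water and ions, stamens make pollen, whose tube grows at the tip through new pectin-rich wall, and pistils hold the ovules. Quinoa is an allotetraploid, so that most genes have a near-identical copy in the other subgenome. Reads that match such copies may be split or shared between them, and values of single copies are uncertain to that extent.

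The 12 libraries held 12499775 to 17019602 counted reads, with 15544918 to 17019602 in leaf. Of 58522 annotated genes, 35954 had enough reads to be tested. Replicates of a tissue had a Spearman correlation of 0.974 to 0.992 across genes, and no pair of libraries was identical. The mark of each organ was checked with marker lists. The light-harvesting list summed to 48784 to 58267 CPM (reads scaled to a common library size with TMM) in leaf libraries, against 12.3 to 13.1 in root, 100.3 to 156 in stamen and 799 to 1159 in pistil. Lists used to mark another organ were lower in leaf than in that organ. The pollen and anther list summed to 203 to 232 CPM in leaf, against 30352 to 31989.8 in stamen. Carpel and YABBY factors summed to 26.3 to 29.6 CPM in leaf, against 229.9 to 256 in pistil, and secretory peroxidases to 56.5 to 66.0 CPM in leaf, against 4662 to 5915 in root. The carpel and YABBY list was low in leaf against pistil alone, with a median log2 fold change of leaf over root of 1.35 and over stamen of 1.18. The peroxidase list does not mark root alone, since its member CqNL-6_046324 averaged 4049 CPM in stamen. The Casparian strip list, which also holds CASP-like and dirigent titles, summed to 96.2 to 103 CPM in leaf, against 207 to 233 in root.

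Leaf differed from the other organs in a large share of its genes. Against the mean of root, stamen and pistil on the log scale, 9472 genes (26.3% of those tested) were higher in leaf and 7837 (21.8%) were lower, at an adjusted p under 0.05 and a log2 fold change of at least 1 in size. A mean of 3 organs can be carried by a single one. Against each of the 3 organs separately, 3993 genes (11.1%) were higher in leaf in all comparisons and 2328 (6.47%) were lower in all. Leaf over root gave 8066 higher genes (22.4%) and 8534 lower genes (23.7%). Leaf over stamen gave the most, 12858 higher (35.8%) and 11471 lower (31.9%), and leaf over pistil gave 7756 higher (21.6%) and 8906 lower (24.8%). Of the 9472 genes above the mean, 3993 (42.2%) passed against all 3 organs, 3546 (37.4%) against 2, and 1656 against stamen alone. Among the 9472, 714 (7.54%) were called lower than at least 1 organ. Of the 7837 genes below the mean, 2328 (29.7%) passed against all 3 organs and 1314 against stamen alone. Each list of genes below is therefore also described organ by organ.

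The genes that were higher in leaf also took up most of what was sequenced there. The 9472 higher genes held 71.9% to 72.6% of the reads of leaf libraries, against 20.8% to 22.9% in root, 4.13% to 4.39% in stamen and 23.8% to 25.7% in pistil. The 3993 genes above each organ held 55.1% to 56.9% of leaf reads, and at most 7.63% in any library of the other organs. The 7837 lower genes held 3.34% to 3.54% of leaf reads, against 25.3% to 27.6% in root, 63.1% to 63.9% in stamen and 21.5% to 23.5% in pistil. These shares describe the genes that the test picked and are no separate evidence.

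The balance of higher and lower calls depended on the scaling. With the TMM factors of edgeR, which assume that the bulk of genes is unchanged, 54.7% of the called genes were higher in leaf and the median log2 fold change of all genes was -0.09. With the total library size, 7800 were higher and 10216 lower, so that 43.3% were higher, and the median was -0.42. All 7800 higher genes under that scaling were among the 9472, and all 7837 lower genes stayed lower. Values below use TMM unless stated. Most genes named below were taken by the rule given in the methods, and others were chosen after their values were seen, to show copies and factors that the rule left out. The test had a further limit on low genes. A gene without a read in leaf and in another organ has no defined log ratio to the mean, and of 1693 such genes edgeR called 0 lower, where DESeq2 called 1275. Of the 1030 genes without a read in leaf and with reads in every other organ, edgeR called 1019. Low genes are therefore best judged organ by organ.

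Photosynthesis genes stood at the top of the leaf data. Each of the 19 tested light-harvesting chlorophyll-binding proteins, 22 photosystem subunits and 14 electron carriers and chloroplast ATP synthase subunits was higher in leaf than in each of the 3 organs. These lists had 22, 26 and 17 members in all, and a member can pass the read filter through leaf alone, so that counts of tested members are partly set by the filter. The median log2 fold change over the mean was 9.31, 8.88 and 9.08 for these lists, against -0.09 over all genes. For Rubisco small subunit and activase, 12 of 12 genes were above the mean and 11 above each organ, with a median of 11.21. These 4 lists took 6.23 to 6.34% (Rubisco small subunit and activase), 4.10 to 4.86% (light harvesting), 3.35 to 3.81% (photosystems) and 1.25 to 1.36% (carriers) of all leaf reads. The Rubisco list took 0.00118 to 0.00150% of reads in root, 0.00437 to 0.00617% in stamen and 0.0249 to 0.0451% in pistil. Pistil was the organ nearest to leaf in each of these lists, with a median log2 fold change of leaf over pistil of 5.73 for light harvesting, against 13.78 over root and 9.41 over stamen. The roots grew in the dark, and light and organ cannot be told apart in the comparison with root.

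**Figure D1:**
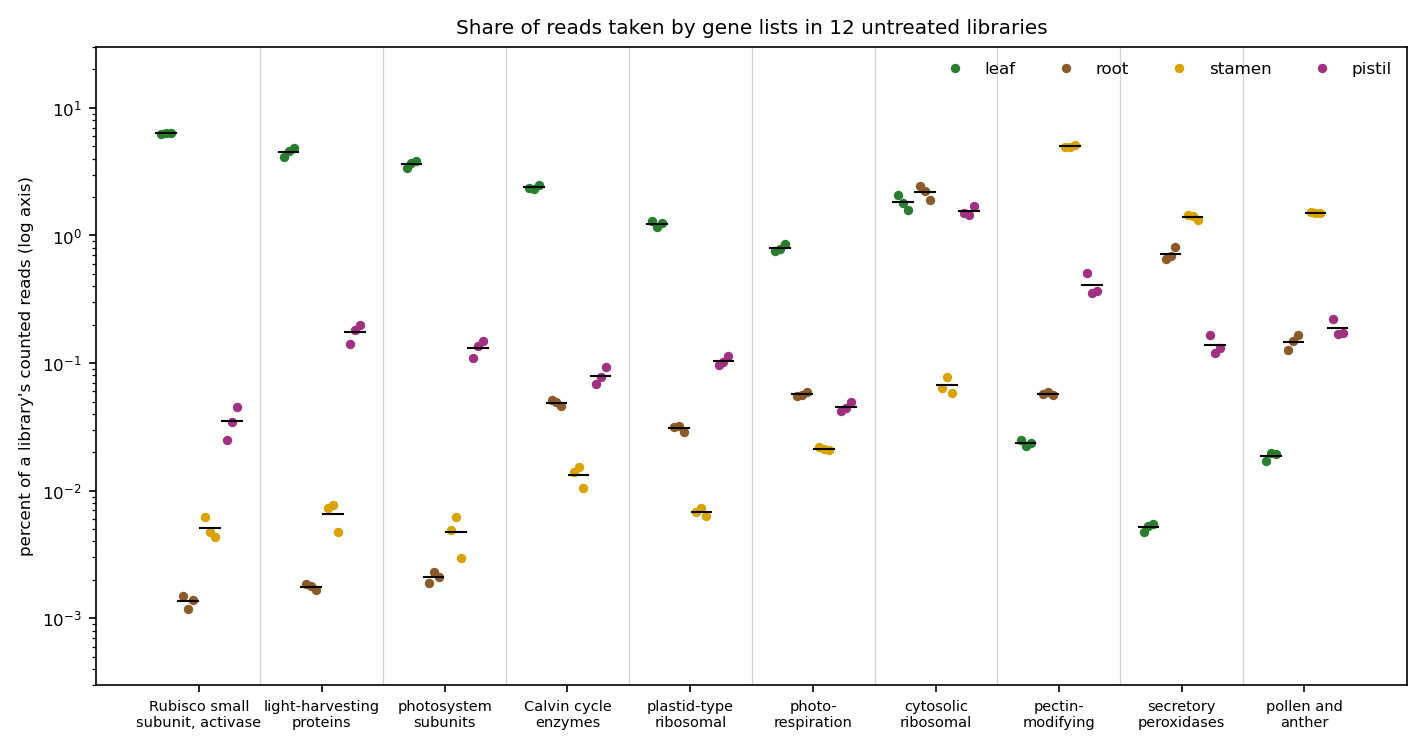
Percent of counted reads per library (log axis) taken by 10 gene lists in leaf, root, stamen and pistil, where each point is 1 library and each black line is the mean of 3. The Rubisco list holds 6.23 to 6.34% of reads in leaf and 0.0249 to 0.0451% in pistil, while the pectin-modifying list holds 0.0224 to 0.0250% in leaf and 4.93 to 5.11% in stamen.

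Rubisco small subunit, which joins the large subunit in the enzyme that fixes CO2, gave the largest difference among the titled genes named by rule. The copy CqNL-6_000831 (chromosome 10 from 72404028 to 72407965, plus strand) had 15215, 16312 and 16876 CPM in the 3 leaf libraries. The same gene had 0.554, 0.127 and 0.258 CPM in root. Stamen libraries had 6.27, 3.08 and 3.86 CPM and pistil libraries 2.34, 2.25 and 10.5 CPM. Every leaf library was far above every other library (log2 fold change 13.04, SE 0.37, adjusted p = 2.67e-16). A second copy, CqNL-6_053773 (chromosome 4 from 53064808 to 53066912, minus strand), had 14340.2, 14618 and 14808 CPM in leaf, against 0.151, 0.381 and 0.103 in root, 13.3, 1.47 and 3.52 in stamen and 5.53, 8.44 and 18.8 in pistil. It followed the same order (log2 fold change 12.51, SE 0.39, adjusted p = 1.43e-15). Rubisco activase, the enzyme that clears inhibitors from Rubisco's active site, was at 9780.4, 8871 and 9530.5 CPM in leaf for CqNL-6_009974. In the other organs it had 0.101, 0.127 and 0.103 CPM in root, 5.99, 5.13 and 4.03 in stamen and 32.0, 42.0 and 47.9 in pistil (log2 fold change 11.66, SE 0.17, adjusted p = 2.61e-19). Within each of these genes the 3 leaf libraries lay close together.

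Antenna and photosystem genes followed with less distance to pistil. LHCb1.2, a major antenna protein of photosystem II (CqNL-6_029603, chromosome 14 from 48701055 to 48701858, plus strand), had 11474, 12473 and 13428 CPM in leaf, against 0.151, 0.593 and 0.517 in root, 7.84, 3.52 and 5.37 in stamen and 78.6, 101 and 117 in pistil. Leaf over pistil was a log2 fold change of 6.98 (SE 0.28, adjusted p = 1.45e-13), where leaf over root was 14.80. The photosystem I antenna protein titled chlorophyll a-b binding protein 6 (CqNL-6_030038) averaged 1858 ± 209.6 CPM in leaf, against 0.0967 ± 0.0534 in root, 8.46 ± 1.09 in stamen and 37.2 ± 5.42 in pistil (SD, n = 3 each). Photosystem I subunit XI (CqNL-6_015357) had 1898, 2238 and 2319.7 CPM in leaf, and 32.6, 44.3 and 43.6 CPM in pistil, the highest of the other organs. The oxygen-evolving enhancer protein 2 of photosystem II (CqNL-6_016863) had 3121, 3323 and 3622 CPM in leaf, against 0.907, 1.19 and 1.40 in root, 2.85, 2.64 and 2.68 in stamen and 51.8, 59.7 and 72.0 in pistil (log2 fold change 9.17, SE 0.14, adjusted p = 2.61e-19). Of the carriers, ferredoxin-NADP oxidoreductase, which makes the NADPH (CqNL-6_016679), averaged 2220.0 ± 110.1 CPM in leaf, against 0.533 ± 0.165 in root, 2.98 ± 0.922 in stamen and 33.2 ± 4.60 in pistil. The gamma chain of the chloroplast ATP synthase (CqNL-6_025339, on an unplaced contig) had 1267, 1287 and 1347 CPM in leaf and no read in root. That makes it at least 27232-fold higher in leaf than in root, with 3 reads over the root libraries as the floor.

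Of 17 tested Calvin cycle enzymes other than Rubisco, 15 were higher in leaf than in each organ and 1 was below the mean. Glyceraldehyde-3-phosphate dehydrogenase B, a chloroplast enzyme of the reducing step (CqNL-6_026924), had 2381, 2363 and 2628 CPM in leaf, against 0.151, 0.127 and 0.103 in root, 1.43, 1.61 and 1.17 in stamen and 20.1, 26.0 and 29.1 in pistil (log2 fold change 10.51, SE 0.14, adjusted p = 2.61e-19). Chloroplast fructose-1,6-bisphosphatase (CqNL-6_017773) averaged 1299 ± 60.0 CPM in leaf, against at most 17.6 ± 2.80 in pistil. The exception was a copy titled chloroplastic fructose-bisphosphate aldolase 3 (CqNL-6_020722), at 9.80, 8.59 and 10.1 CPM in leaf, against 147, 137 and 129 in root, 8.98, 14.1 and 6.88 in stamen and 21.8, 18.7 and 22.0 in pistil. Its root libraries were the highest and leaf overlapped stamen. The difference from the mean passed (log2 fold change -1.69, SE 0.15, adjusted p = 6.3e-09) and did not pass when root was left out. A further copy with this title (CqNL-6_041068) was also highest in root and did not pass against the mean (log2 fold change -0.08, SE 0.12, adjusted p = 0.587).

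The deposited FPKM values, which are corrected for gene length, allow genes to be ranked within leaf. The highest was LHCb1.2 CqNL-6_029603, at 13035 ± 982 FPKM (SD, n = 3), followed by the Rubisco small subunit CqNL-6_053773 at 11734 ± 189 FPKM. These values differ by less than 2 SD of the first. Among the 30 genes with the highest mean FPKM in leaf, 1 was not far above the other organs: a glycine-rich RNA-binding protein 7-like gene (CqNL-6_020318) had 2609 ± 292 FPKM in leaf, and a log2 fold change over the mean of 2.78. The other 29 had log2 fold changes of 7.08 or more. Most of them were antenna, photosystem, Rubisco, ferredoxin, plastocyanin and oxygen-evolving titles, and 2 had no informative title.

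Not every gene at the top belonged to photosynthesis proper. Chloroplast carbonic anhydrase, which interconverts CO2 and bicarbonate (CqNL-6_031154, chromosome 14 from 2056195 to 2060507, plus strand), had 3809, 4046 and 4308 CPM in leaf, against 0.101, 0.0847 and 0.103 in root, 2.28, 0.586 and 1.51 in stamen and 0.495, 0.486 and 2.42 in pistil (log2 fold change 12.82, SE 0.28, adjusted p = 7.1e-18). A gene titled polyamine oxidase (CqNL-6_014339, chromosome 9 from 55658784 to 55667433, plus strand), an enzyme class that breaks down polyamines, had 945, 1640.5 and 1486 CPM in leaf, against 0, 0.0423 and 0 in root, 1.57, 1.03 and 0 in stamen and 0.225, 0 and 0.752 in pistil. The auxin-binding protein ABP19a (CqNL-6_019198, chromosome 14 from 11510930 to 11511559, minus strand), a title used for germin-like proteins, had 1734, 1492 and 1469 CPM in leaf. Its highest value elsewhere was in pistil, at 0.899, 1.28 and 2.13 CPM (log2 fold change 12.51, SE 0.21, adjusted p = 3.88e-19). A gene titled salt-induced protein (CqNL-6_024767, chromosome 16 from 57531592 to 57533201, plus strand) had 1151, 1493 and 1750.5 CPM in these leaves, which saw no NaCl, against 0.0504, 0.677 and 0.155 in root, 0.856, 0 and 0.503 in stamen and 0.360, 0.221 and 0.961 in pistil (log2 fold change 11.74, SE 0.26, adjusted p = 1.11e-17). Leaf replicate 1 was the lowest of its leaf libraries and still far above all others. The FKBP65-like peptidyl-prolyl isomerase CqNL-6_035736, a protein-folding enzyme by title, had 62.4, 55.5 and 61.2 CPM in leaf and no read in root or stamen. It was at least 1250.3-fold higher in leaf than in root and at least 394-fold higher than in stamen.

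**Figure D2:**
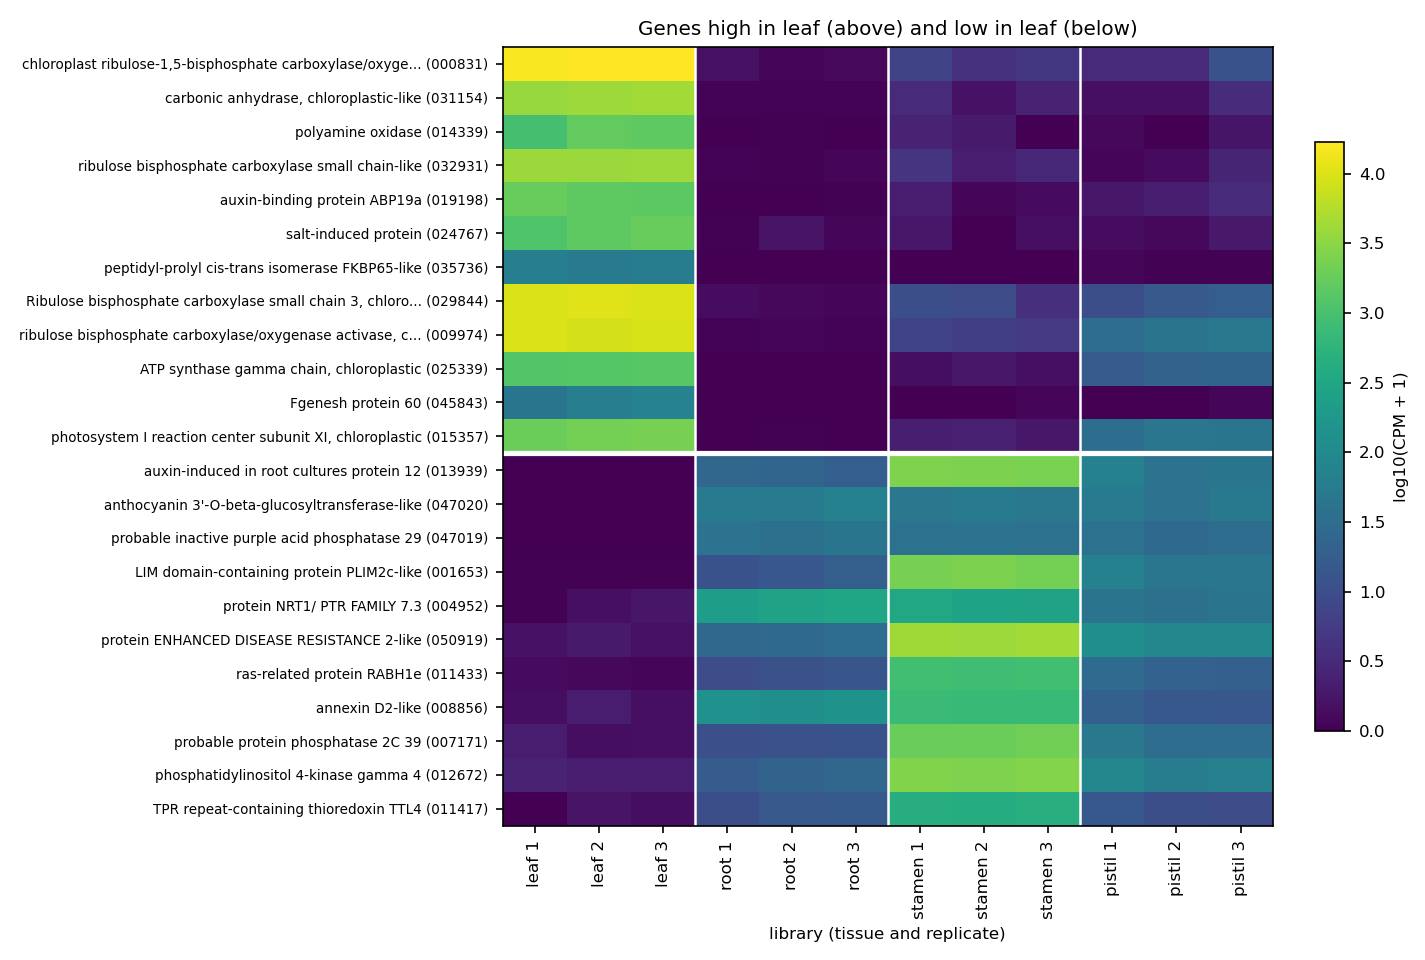
Level of 23 named genes in 12 libraries as log10(CPM + 1), with the 12 titled genes of the largest log2 fold change of leaf over the mean above the white line and 11 of those with the most negative one below it. The upper genes are bright in the 3 leaf columns alone, and the lower genes are dark in leaf, with most of them brightest in stamen.

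Most enzymes of pathways that support photosynthesis were also higher in leaf. Of 12 photorespiration enzymes, which recycle the product of Rubisco's reaction with oxygen, 8 were higher than in each organ and 2 were below the mean. Over all genes, these shares were 11.1% and 21.8%. Peroxisomal 2-hydroxy-acid oxidase (glycolate oxidase; CqNL-6_007503) had 1998, 1991 and 2219.9 CPM in leaf, against 22.4, 21.2 and 21.9 in root, 30.5, 32.4 and 31.2 in stamen and 23.9, 25.5 and 30.9 in pistil. Its level was similar in the other 3 organs (log2 fold change 6.29, SE 0.10, adjusted p = 3.23e-19). Both genes titled glyoxylate/hydroxypyruvate reductase HPR3 went the other way. The copies CqNL-6_029240 and CqNL-6_029245 had no read in leaf. In root the first had 27.1, 27.3 and 40.5 CPM. The second had 5.04, 4.74 and 7.03 CPM in root and reached 5.85, 6.16 and 8.22 CPM in stamen. Against root, these were at least 438-fold and 77.7-fold lower in leaf. They lie on the same chromosome (chromosome 11 from 66223412 to 66230675, minus strand, and chromosome 11 from 66114496 to 66118159, plus strand). Without stamen replicate 1, 1 photorespiration enzyme in place of 2 was called below the mean.

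Chlorophyll enzymes were above the mean in 9 of 9 genes and above each organ in 8. Protochlorophyllide reductase, which acts in light (CqNL-6_007045), had 774, 983 and 883 CPM in leaf, against 0.0504, 0.0423 and 0 in root, 1.43, 0.733 and 0.336 in stamen and 4.41, 4.07 and 5.64 in pistil (log2 fold change 10.66, SE 0.16, adjusted p = 2.61e-19). Carotenoid, tocopherol and plastid isoprenoid enzymes were above the mean in 14 of 19 genes and below it in 0 (3 of these genes had no read in leaf and another organ, and DESeq2 called 2 lower). Zeaxanthin epoxidase of the xanthophyll cycle (CqNL-6_003119) averaged 131 ± 13.4 CPM in leaf, against 0.0172 ± 0.0298 in root, 0.545 ± 0.192 in stamen and 2.17 ± 0.444 in pistil. Its partner violaxanthin de-epoxidase (CqNL-6_040209) averaged 172 ± 8.64 CPM in leaf, against 3.70 ± 0.0908 in root, 15.7 ± 1.46 in stamen and 11.2 ± 0.850 in pistil (log2 fold change 4.31, SE 0.08, adjusted p = 7.13e-19). Among 23 genes of chloroplast proteases, import and thylakoid assembly, 19 were above the mean, with a median log2 fold change of 3.13. THYLAKOID FORMATION1 (CqNL-6_047447) had 412, 395 and 435 CPM in leaf and at most 13.5 CPM in any other library, and a chloroplast FTSH protease, of the family that clears damaged photosystem II protein (CqNL-6_039432), averaged 644 ± 11.1 CPM in leaf, against 37.6 ± 3.77 in pistil (log2 fold change 5.23, SE 0.09, adjusted p = 5.95e-19).

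Plastid and cytosolic ribosomal proteins differed. Of 52 plastid-type ribosomal proteins, 47 were above the mean and 46 above each organ, with a median log2 fold change of 6.72 (6.45 over root, 8.39 over stamen and 4.73 over pistil). The chloroplast 50S protein 5 alpha (CqNL-6_035686) had 375, 348 and 378 CPM in leaf, against 0.756, 0.974 and 0.879 in root, 0.428, 0.586 and 0.503 in stamen and 7.33, 8.22 and 10.7 in pistil (log2 fold change 7.86, SE 0.12, adjusted p = 2.61e-19). Of 127 cytosolic ribosomal proteins, 112 were above the mean and yet 2 were above each organ. They were higher than in stamen in 115 genes, than in pistil in 88 and than in root in 4. Without the stamen libraries, 38 were called above the mean, and with the total library size the count over pistil was 4 and the median over root turned from 0.47 to -0.27. The list took 1.57 to 2.09% of reads in leaf, against 1.90 to 2.45% in root, 0.0587 to 0.0781% in stamen and 1.45 to 1.71% in pistil. For example, 60S protein L38 (CqNL-6_015324) had 159.6, 159.9 and 124 CPM in leaf, against 85.6, 78.7 and 75.7 in root, 2.85, 3.08 and 3.19 in stamen and 49.1, 44.7 and 52.9 in pistil. Stamen was the organ that stood apart. The copy titled 60S L37a-2 (CqNL-6_033489) was below the mean, at 4.55 CPM in leaf, against 4.39 in root, 60.0 in stamen and 13.5 in pistil. Without the stamen libraries it did not pass.

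**Figure D3:**
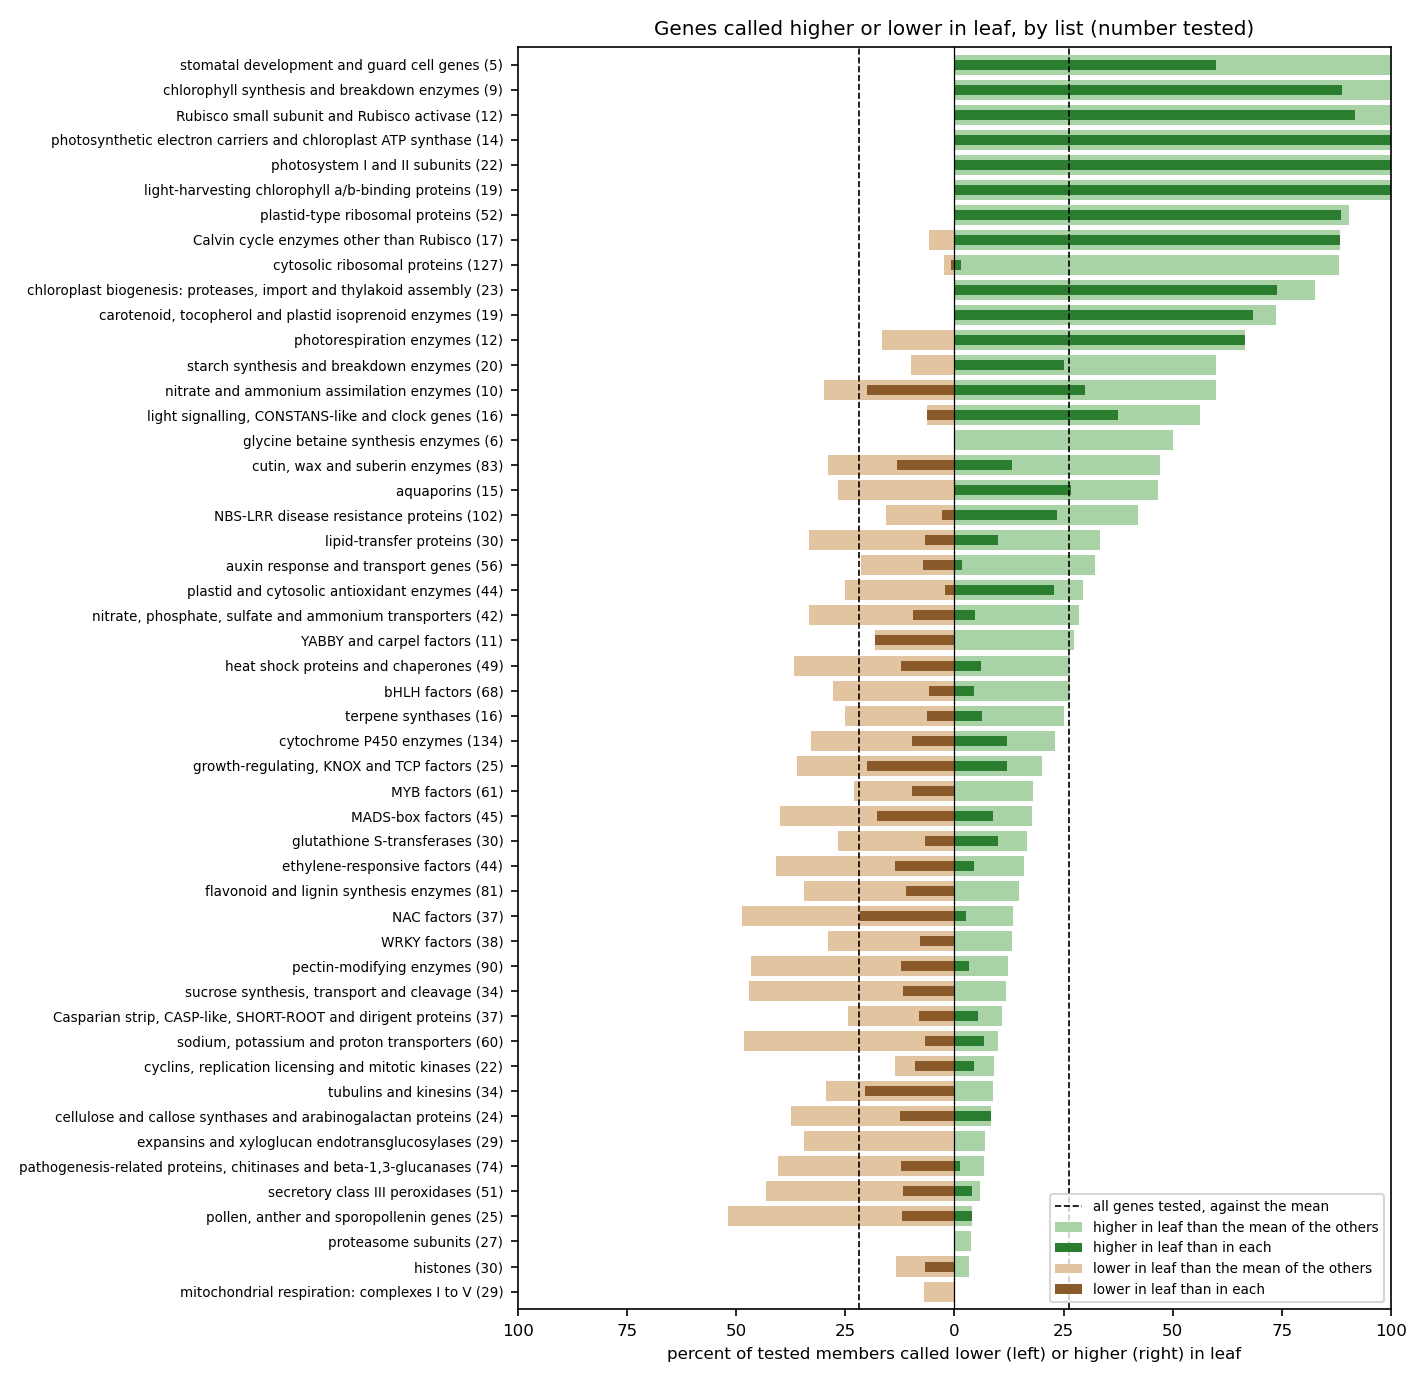
Percent of the tested members of each list called lower (left) or higher (right) in leaf, with pale bars against the mean of root, stamen and pistil and narrow dark bars against each of them, and the number tested in parentheses. Dashed lines give the shares over all genes tested against the mean, 26.3% higher and 21.8% lower. The light-harvesting, photosystem and electron carrier lists reach 100% in both bars, and the cytosolic ribosomal list reaches 88.2% in the pale bar and 1.57% in the dark one.

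The plastid and cytosolic isoforms of glutamine synthetase differed in opposite directions. Glutamine synthetase joins ammonium to glutamate, in the chloroplast as GS2 and in the cytosol as GS1. The plastid GS2 copies CqNL-6_055157 (chromosome 15 from 36094522 to 36099785, plus strand) and CqNL-6_055558 (chromosome 6 from 52545323 to 52550373, plus strand) were leaf genes. The first had 1803, 1691 and 1883 CPM in leaf, against 45.7, 38.1 and 36.7 in root, 1.71, 0.880 and 0.503 in stamen and 21.0, 23.5 and 25.8 in pistil. The second had 2010.0, 1905 and 2010.0 CPM in leaf, against 14.7, 16.3 and 16.4 in root, 2.14, 1.47 and 1.17 in stamen and 9.31, 13.5 and 18.7 in pistil. Both were above each organ (log2 fold change 7.48, SE 0.13, adjusted p = 4.82e-19 for the first). The cytosolic copies went the other way. CqNL-6_033117 had 31.5, 27.9 and 28.7 CPM in leaf, against 1523, 1684 and 1793 in root, 530.3, 527 and 440.1 in stamen and 105, 77.7 and 114 in pistil. CqNL-6_051424 had 15.5, 17.0 and 15.8 CPM in leaf, against 620.2, 656 and 707 in root, 39.9, 47.8 and 31.4 in stamen and 39.0, 31.9 and 44.6 in pistil. Both cytosolic copies were lower in leaf than in each organ with TMM, and with the total library size the second lost the call against stamen (log2 fold change -0.51). They differed by log2 fold changes of -5.83 and -5.36 against root. Nitrate reductase, the first step of the pathway (CqNL-6_001554), had 491, 531 and 439.9 CPM in leaf, against 122, 119.8 and 123 in root, 10.7, 9.97 and 14.4 in stamen and 21.7, 24.6 and 29.3 in pistil (log2 fold change 3.89, SE 0.10, adjusted p = 9.63e-17). Nitrite reductase (CqNL-6_007120) had 523, 367 and 381 CPM in leaf and 491, 485 and 529.8 CPM in root, which overlapped (leaf over root: log2 fold change -0.25, SE 0.17, adjusted p = 0.221), and was low in stamen and pistil. In all, 6 of 10 assimilation enzymes were above the mean and 3 below, beside 26.3% and 21.8% of all genes.

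**Figure D4:**
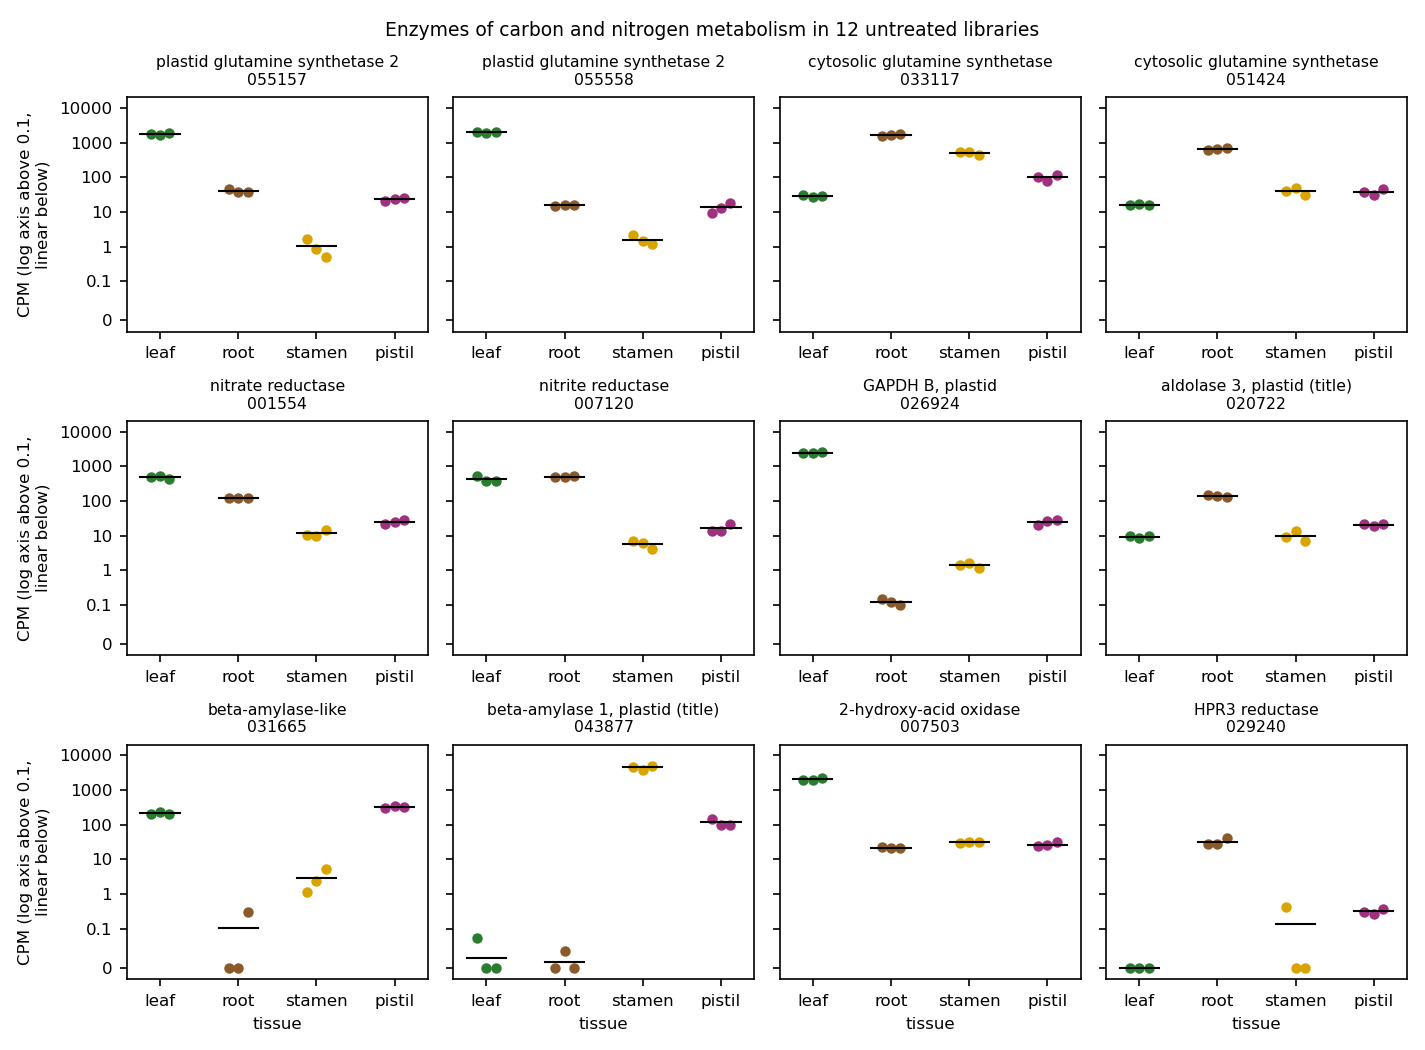
CPM of 12 enzymes of carbon and nitrogen metabolism (axis logarithmic above 0.1 and linear below), with 1 point per library, a line at the mean of 3, and the last 6 digits of the gene identifier in each title. Plastid glutamine synthetase is highest in leaf and cytosolic glutamine synthetase highest in root, and the beta-amylase 1 copy is near 0 in leaf and has 4667, 3879 and 5076 CPM in stamen.

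Starch enzymes were split by organ. Of 20, 12 were above the mean and 2 below, and 5 (25.0%) were above each organ. Of all genes, 26.3% were above the mean, 21.8% below it and 11.1% above each organ. Starch synthase 4 (CqNL-6_029602) had 137, 133 and 134 CPM in leaf, against 9.77, 10.8 and 9.41 in root, 2.71, 3.81 and 2.18 in stamen and 11.4, 15.2 and 12.9 in pistil (log2 fold change 4.21, SE 0.10, adjusted p = 1.67e-17). The starch-degrading beta-amylases were divided between organs. A beta-amylase-like gene (CqNL-6_031665) had 201, 237 and 206 CPM in leaf, against 0, 0 and 0.310 in root, 1.14, 2.35 and 5.20 in stamen and 302, 345 and 334 in pistil, where it was highest. The copies titled chloroplastic beta-amylase 1 (CqNL-6_043877, chromosome 6 from 65253639 to 65256327, plus strand, and CqNL-6_043878, chromosome 6 from 65253292 to 65253582, plus strand) lie next to each other on the same strand and were close to 0 in leaf. CqNL-6_043877 had 1 read in leaf, against 4667, 3879 and 5076 CPM in stamen. Its pistil level was 150.1, 99.7 and 98.5 CPM. Root was as low as leaf for both, and the call of CqNL-6_043878 against the mean rested on 2 reads in leaf and 1 in root (adjusted p = 0.000362, and 1 without root replicate 1). Without root replicate 1 or 2, 1 starch enzyme in place of 2 was below the mean.

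Of 34 tested genes of sucrose synthesis, transport and cleavage, 16 (47.1%) were below the mean and 4 above, beside 21.8% and 26.3% of all genes. Without stamen replicate 1, 10 were below. Sucrose synthase, which cleaves sucrose in importing tissue (CqNL-6_032449), had 10.3, 11.7 and 7.39 CPM in leaf, against 212, 226 and 254 in root, 545, 521 and 541 in stamen and 118, 105 and 172 in pistil (log2 fold change -4.70, SE 0.19, adjusted p = 9.73e-14). The SWEET7-like sugar transporter (CqNL-6_021615) averaged 0.399 ± 0.312 CPM in leaf, against 20.9 ± 1.06 in root, 97.4 ± 3.09 in stamen and 8.61 ± 1.00 in pistil. Sucrose-phosphate synthase, which makes sucrose (CqNL-6_048835), was higher in leaf than in root and pistil and not called against stamen, with 173, 183 and 197 CPM in leaf, against 27.0, 32.3 and 39.5 in root, 136, 142 and 161 in stamen and 12.8, 9.72 and 15.5 in pistil.

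Among genes of the leaf surface, the stomatal genes with enough reads to be tested were higher and cuticle genes moved both ways. The bHLH factor FAMA sets guard cell fate in Arabidopsis. Its quinoa copy CqNL-6_016345 had 4.67, 4.26 and 3.59 CPM in leaf and CqNL-6_031505 had 7.58, 5.73 and 5.42 CPM, and the highest value of either in another library was 0.795 CPM, in pistil. The first passed against each organ (log2 fold change 4.53, SE 0.32, adjusted p = 2.73e-10), although its level was low. The guard cell anion channel SLAC1 (CqNL-6_012346) had 6.66, 6.29 and 6.55 CPM in leaf, against 0.151, 0 and 0 in root, 4.13, 2.05 and 3.19 in stamen and 0.0899, 0.221 and 0.418 in pistil. Of 12 stomatal genes, 5 passed the read filter, and these 5 were above the mean and 3 of them above each organ. Such genes can pass the filter through leaf, where they are high, and with at least 1 CPM required in 6 libraries 3 were called. Cutin, wax and suberin enzymes were above the mean in 39 of 83 genes (47.0%) and below it in 24 (28.9%). An O-acyltransferase WSD1-like gene of wax ester synthesis (CqNL-6_001349) had 116, 139 and 130.3 CPM in leaf, against 0.201, 0.254 and 0.258 in root, 3.56, 1.47 and 0.503 in stamen and 1.39, 2.43 and 2.05 in pistil (log2 fold change 7.04, SE 0.17, adjusted p = 3.1e-17). A second WSD1-like gene (CqNL-6_040108) had 55.3, 44.0 and 40.6 CPM in leaf and no read in root or pistil, so that it was at least 976-fold higher than in root. Lipid-transfer proteins were 10 (33.3%) above and 10 (33.3%) below the mean, of 30. Over all genes, 26.3% were above the mean and 21.8% below it.

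Light and development factors followed. Of 16 light signalling, CONSTANS-like and clock genes, 9 were above the mean and 6 above each organ, beside 26.3% and 11.1% of all genes. CONSTANS-LIKE 16 (CqNL-6_043343, chromosome 1 from 69858366 to 69859865, plus strand), of a family of zinc finger factors, had 102, 113 and 118 CPM in leaf, against 0.101, 0 and 0.0517 in root, no read in stamen and 2.88, 2.47 and 2.22 in pistil. It was at least 731-fold higher in leaf than in stamen. The response regulator APRR1, a clock gene also called TOC1 in Arabidopsis (CqNL-6_003403), was lower than in each organ with TMM, at 0.766, 0.419 and 0.704 CPM in leaf, against 1.56, 1.61 and 1.29 in root, 3.14, 1.17 and 1.85 in stamen and 4.05, 2.43 and 3.05 in pistil. With the total library size it was not called against stamen (edgeR's adjusted p = 0.0634), and 0 genes of the list were lower than in stamen. Harvest hours of the organs were not given in the sources used here. TCP17, a factor of leaf growth in Arabidopsis (CqNL-6_005407), had 15.9, 13.1 and 17.7 CPM in leaf, against 2.28, 0.586 and 1.17 in stamen, 0.315, 0.663 and 0.293 in pistil and no read in root. The brassinosteroid enzyme cytochrome P450 90A1 (CqNL-6_010848) had 123, 129.8 and 138 CPM in leaf, against 5.94, 6.94 and 5.79 in root, 17.5, 12.6 and 14.4 in stamen and 2.11, 2.34 and 1.71 in pistil (log2 fold change 4.50, SE 0.09, adjusted p = 4.57e-18). AUXIN RESPONSE FACTOR 3 (CqNL-6_034703) averaged 56.8 ± 1.23 CPM in leaf, against 7.40 ± 0.695 in root, 1.35 ± 0.310 in stamen and 32.1 ± 1.03 in pistil. Its log2 fold change over pistil, 0.82, was below the minimum of 1.

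Transporter lists were mixed. Of 60 sodium, potassium and proton transporters, 29 (48.3%) were below the mean and 6 (10.0%) above, beside 21.8% and 26.3% of all genes. The difference was largest against stamen, with 40 lower and 9 higher, beside 31.9% and 35.8% of all genes. Against pistil, 26 were lower and 14 higher, beside 24.8% and 21.6%. Against root, 17 were lower (30 with the total library size) and 6 higher, beside 23.7% and 22.4%. The HKT8-like cation transporter, of a family that removes sodium from the xylem in other plants (CqNL-6_049225), was one of the 4 above each organ, with 17.2, 18.9 and 22.7 CPM in leaf, against 0.151, 0.847 and 0.465 in root, 3.56, 4.11 and 4.36 in stamen and 0.315, 0.177 and 0.293 in pistil (log2 fold change 4.58, SE 0.20, adjusted p = 2.06e-13). Plasma membrane ATPase 4, a proton pump (CqNL-6_027912), had 145, 163 and 159 CPM in leaf and at most 25.5 CPM in any other library. The cation/H(+) antiporter 2-like gene CqNL-6_045650 had no read in leaf and 2 in root, against 322, 352 and 393 CPM in stamen. Of 15 aquaporins, 7 were above the mean and 4 below. Aquaporin CqNL-6_032512 had 704, 699 and 641 CPM in leaf, against 66.7, 61.3 and 69.1 in root, 76.0, 93.0 and 47.8 in stamen and 142, 171 and 171 in pistil (log2 fold change 2.90, SE 0.13, adjusted p = 2.18e-13). Aquaporin CqNL-6_012511 was called above the mean (log2 fold change 6.76) with 5.97, 9.36 and 13.6 CPM in leaf and 10.4, 9.23 and 16.0 CPM in root, which overlapped, because it had no read in stamen or pistil. Nitrate, phosphate, sulfate and ammonium transporters were 12 (28.6%) above and 14 (33.3%) below the mean, of 42. Glycine betaine is an osmolyte of quinoa and its relatives. Its synthesis enzymes were above the mean in 3 of 6 genes and above each organ in 0. Choline monooxygenase (CqNL-6_054275) had 79.0, 68.7 and 72.7 CPM in leaf and 56.7, 74.7 and 78.6 CPM in root, which overlapped, against 1.43, 1.03 and 0.503 in stamen and 12.2, 23.2 and 24.5 in pistil. Of 3 betalain pigment enzymes tested, 1 was below the mean and 0 were above.

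The low genes named by rule were near 0 in leaf and mostly high in stamen. The gene titled auxin-induced in root cultures protein 12 (AIR12; CqNL-6_013939, chromosome 13 from 4151942 to 4152646, plus strand), a membrane-bound cytochrome b in Arabidopsis, had no read in leaf. It had 23.8, 23.2 and 17.6 CPM in root, 2554, 2464 and 2356 in stamen and 69.9, 39.1 and 43.2 in pistil. Leaf was at least 34072-fold below stamen, 299-fold below root and 704-fold below pistil (adjusted p = 2.18e-13 against the mean). PLIM2c, an actin-binding LIM protein of pollen in Arabidopsis (CqNL-6_001653), had 0.0766, 0.0699 and 0.0704 CPM in leaf, which is 1 read per library. The other organs had 10.6, 12.8 and 18.0 CPM in root, 2319, 2427 and 2226 in stamen and 71.2, 45.0 and 45.0 in pistil (log2 fold change -10.55, SE 0.39, adjusted p = 1.57e-14). ENHANCED DISEASE RESISTANCE 2-like (CqNL-6_050919) averaged 0.741 ± 0.267 CPM in leaf, against 27.7 ± 3.57 in root, 4196 ± 179 in stamen and 101 ± 23.9 in pistil. The GTPase RABH1e, protein phosphatase 2C 39, phosphatidylinositol 4-kinase gamma 4 and thioredoxin TTL4 were also highest in stamen, with log2 fold changes over the mean of -8.05, -7.10, -6.88 and -6.63.

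Many of the named stamen-rich genes were present in pistil at a similar small share. Among the genes that were chosen for naming, 26 had at least 100 CPM in stamen and under 2 CPM in leaf, and of these 22 had a pistil level of 1% to 5% of the stamen level. For AIR12 this was 2.06%, for PLIM2c 2.31%, for the beta-amylase 1 copy CqNL-6_043877 2.56% and for the exopolygalacturonase-like gene CqNL-6_023569 2.12%. In leaf these 26 genes stood at 0.202% or less of the stamen level, a low share that their selection by leaf and stamen level sets in advance. The low genes named by rule also had to reach 10 CPM in each other tissue, pistil among them. The part of this share in the calls of leaf below pistil was not tested.

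The remaining 4 low genes were also high in root. An anthocyanin 3'-O-beta-glucosyltransferase-like gene (CqNL-6_047020, chromosome 14 from 325415 to 327251, minus strand) and a probable inactive purple acid phosphatase 29 (CqNL-6_047019, chromosome 14 from 331395 to 340776, plus strand) lie side by side and had no read in leaf. The first had 57.2, 52.4 and 69.8 CPM in root, 46.3, 56.3 and 48.0 in stamen and 53.0, 36.7 and 50.5 in pistil. The second had 40.5, 35.1 and 43.5 CPM in root, 37.4, 39.0 and 37.2 in stamen and 38.0, 26.8 and 31.7 in pistil. Both were thus found at similar levels in the 3 other organs and not in leaf, where they were at least 647-fold and 446-fold lower than in pistil. NRT1/PTR FAMILY 7.3, a nitrate transporter that loads the xylem in Arabidopsis roots (CqNL-6_004952), had 0.0766, 0.489 and 0.774 CPM in leaf, against 224, 269 and 315 in root, 326, 280.5 and 267 in stamen and 41.6, 35.0 and 40.5 in pistil (log2 fold change -8.29, SE 0.27, adjusted p = 2.48e-15). Annexin D2-like, of a family of calcium-dependent membrane-binding proteins (CqNL-6_008856), averaged 0.690 ± 0.371 CPM in leaf, against 135 ± 6.91 in root, 725 ± 32.5 in stamen and 15.2 ± 3.21 in pistil.

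Cell wall genes were among the lists that were lowest in leaf. Of all genes, 21.8% were below the mean and 26.3% above it, and 23.7% were lower than in root and 22.4% higher. Secretory class III peroxidases, which cross-link or loosen the wall with hydrogen peroxide, were below the mean in 22 of 51 genes and above it in 3 (43 below with DESeq2). Against root, 37 were lower and 2 higher, with a median log2 fold change of -7.96. Peroxidase 57-like CqNL-6_018587 had 1 read in leaf, against 245, 330.4 and 460.4 CPM in root, and gave no call against the mean because stamen had none (adjusted p = 1). Cationic peroxidase 1-like CqNL-6_046324 had no read in leaf, against 4189.9, 4223 and 3734 CPM in stamen, at least 56119.7-fold lower. Expansins and xyloglucan endotransglucosylases, which loosen growing walls, were lower than in root in 22 of 29 genes and higher in 3, while 10 were below the mean (21 with DESeq2, and 6 without stamen replicate 2 or 3). This list was made by titles. The KEGG entry of xyloglucan endotransglucosylases (K08235), with 38 tested genes of which 9 are in the list, gave another picture, with 18 above the mean, 12 below and a median log2 fold change of 0.80. Against root, 20 of the 38 were lower and 13 higher. The xyloglucan endotransglucosylase CqNL-6_047653 had 1.76, 1.33 and 0.845 CPM in leaf, against 502, 466 and 660.2 in root and at most 14.0 CPM in stamen and pistil. Expansin-A1 CqNL-6_024132 was above the mean, with 117, 128 and 116 CPM in leaf, against 13.8, 16.7 and 17.2 in root, 5.28, 3.37 and 2.01 in stamen and 66.5, 61.1 and 74.3 in pistil.

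Pectin-modifying enzymes were below the mean in 42 of 90 genes and above it in 11. They were lower than in stamen in 63 and than in pistil in 54. Of all genes, 21.8% were below the mean and 26.3% above it, while 31.9% were lower than in stamen and 24.8% lower than in pistil. The list held 0.0224 to 0.0250% of leaf reads, against 0.0567 to 0.0588% in root, 4.93 to 5.11% in stamen and 0.356 to 0.508% in pistil. The exopolygalacturonase-like gene CqNL-6_023569, of a class that trims pectin in pollen, had no read in leaf, against 1.11, 0.762 and 1.86 CPM in root, 3993, 3729 and 4223 in stamen and 106, 70.4 and 76.8 in pistil. Pectinesterase 53 (CqNL-6_033708) was at 0, 0 and 0.0704 CPM in leaf, against 8.61, 8.17 and 9.46 in root, 6.70, 7.92 and 7.72 in stamen and 19.1, 19.9 and 20.9 in pistil (log2 fold change -8.42, SE 0.35, adjusted p = 9.3e-14), and so was highest in pistil. Pollen and anther genes were below the mean in 13 of 25 (52.0%, beside 21.8% of all genes). The pollen allergen Che a 2 (CqNL-6_032146) had 5.59, 8.38 and 5.49 CPM in leaf, against 197, 236 and 314 in root, 1388, 1399.8 and 1284 in stamen and 31.8, 23.1 and 19.3 in pistil. It was thus detected in all 4 organs. Tetraketide alpha-pyrone reductase 1, an enzyme of pollen wall synthesis in Arabidopsis (CqNL-6_018292), was the 1 member above the mean, with 10.8, 11.4 and 14.9 CPM in leaf and at most 0.710 CPM elsewhere.

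**Figure D5:**
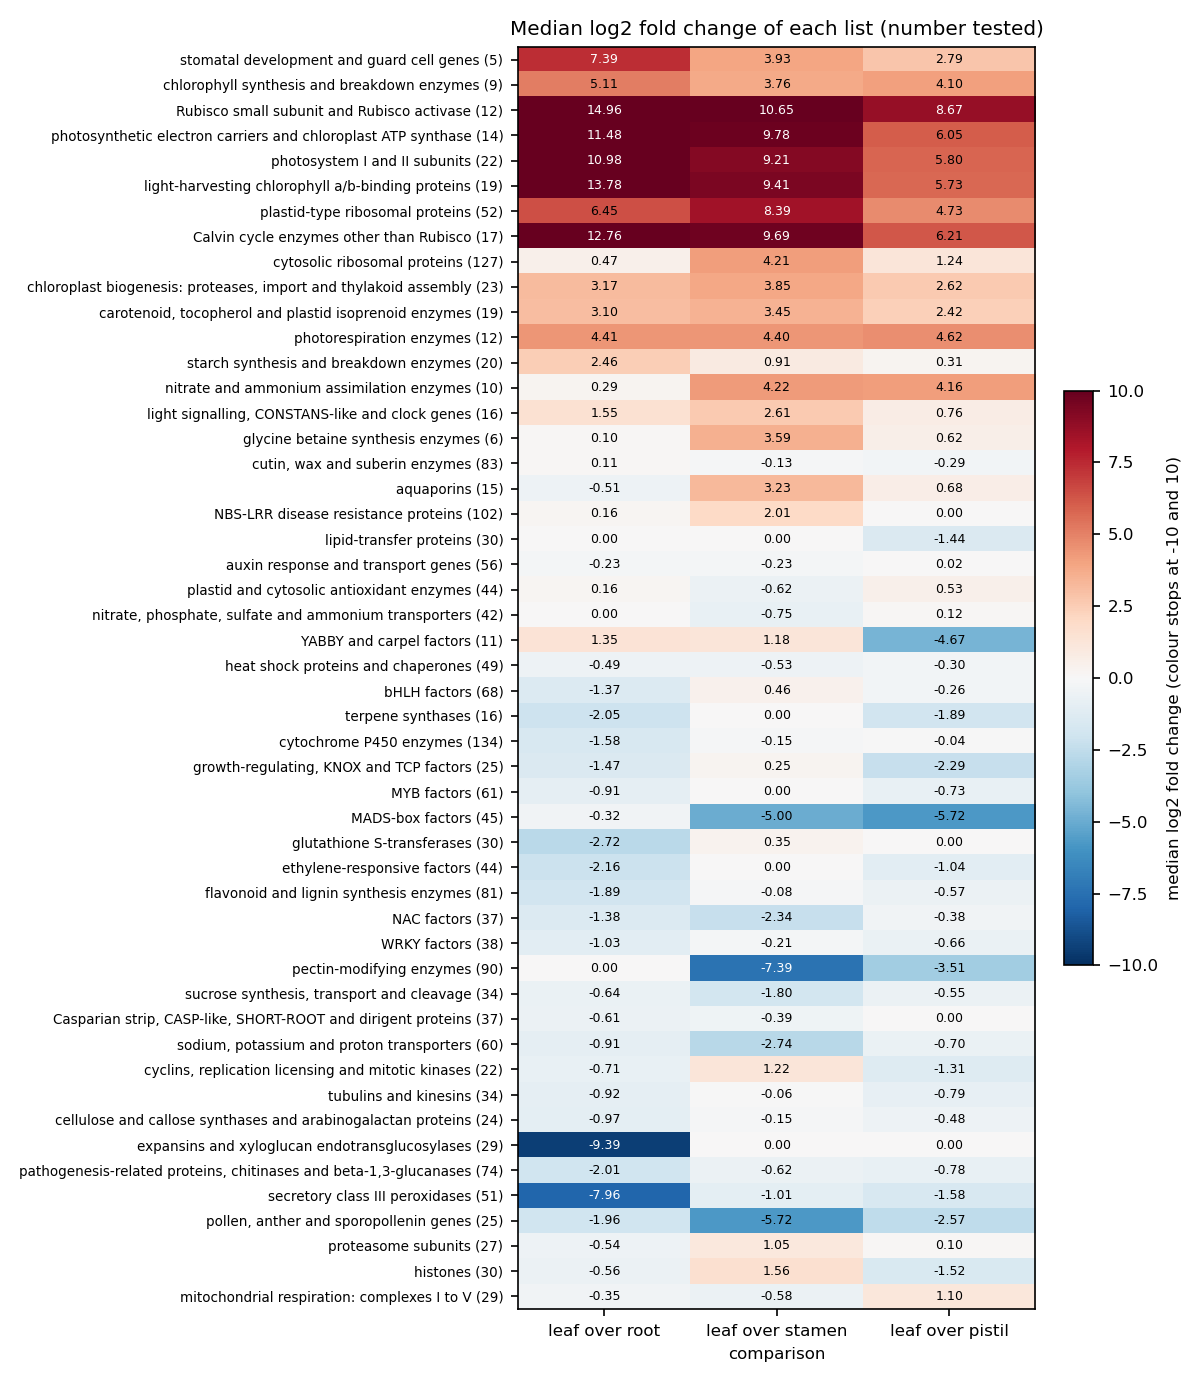
Median log2 fold change of each list for leaf over root, leaf over stamen and leaf over pistil, with the number of tested genes in parentheses, the value printed in each cell and colours limited to -10 and 10. The photosynthesis lists are positive in all columns, expansins (-9.39) and secretory peroxidases (-7.96) are most negative against root, pectin-modifying enzymes against stamen (-7.39) and MADS-box factors against pistil (-5.72).

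Floral identity factors were near 0 in leaf, while a few MADS-box genes were leaf genes. AGAMOUS, which specifies stamens and carpels (CqNL-6_033215), had 1 read in leaf, against 0.353, 0.127 and 0.569 CPM in root, 158, 155 and 128 in stamen and 193, 187 and 211 in pistil. PISTILLATA, of petals and stamens (CqNL-6_002488), had no read in leaf and 164, 178 and 121 CPM in stamen. The carpel factor CRABS CLAW (CqNL-6_044610) had no read in leaf or root and 56.7, 50.2 and 59.3 CPM in pistil, at least 768-fold lower in leaf. Of 45 MADS-box factors, 18 were below the mean (29 with DESeq2 or without root) and 8 above. These are 40.0% and 17.8%, beside 21.8% and 26.3% of all genes. MADS-box 23-like CqNL-6_050655 had 44.6, 49.9 and 46.7 CPM in leaf, against 0.504, 0.508 and 0.879 in root and no read in stamen or pistil, at least 1079-fold higher than in pistil. SOC1, a factor that promotes flowering in Arabidopsis (CqNL-6_001708), had 28.5, 24.4 and 19.3 CPM in leaf, against 0.151, 0.169 and 0.207 in root, 5.42, 4.40 and 6.04 in stamen and 0.674, 0.972 and 0.961 in pistil (log2 fold change 4.67, SE 0.16, adjusted p = 4.32e-15). YABBY 2, a factor of the lower side of lateral organs (CqNL-6_019045), had 17.5, 15.9 and 21.3 CPM in leaf and 13.6, 13.8 and 14.7 CPM in pistil, no read in root and 0.713, 1.03 and 0.839 CPM in stamen. Of 11 YABBY and carpel factors, 8 were lower in leaf than in pistil and 0 higher, beside 24.8% and 21.6% of all genes.

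More than 50% of the tested histones, cyclins and related genes, and growth-regulating, KNOX and TCP factors were lower in leaf than in pistil. Over all genes this share was 24.8%. Tubulins and kinesins, also a list of cell division, were lower than in pistil in 14 of 34 and higher in 2. Histones were lower in leaf than in pistil in 20 of 30 genes and higher in 0, and higher than in stamen in 15, so that 1 was above the mean and 4 below. Cyclins, replication licensing factors and mitotic kinases were lower than in pistil in 14 of 22 and higher than in stamen in 12, with 3 below the mean and 2 above. Growth-regulating, KNOX and TCP factors were lower than in pistil in 18 of 25, with 9 below the mean and 5 above. GROWTH-REGULATING FACTOR 1 (CqNL-6_030314) had 1 read in leaf, against 6.55, 5.04 and 3.46 CPM in root and 22.1, 22.8 and 23.7 in pistil. The kinase Aurora-2, which acts in mitosis (CqNL-6_009397), had 3.98, 3.07 and 3.94 CPM in leaf, against 18.2, 20.6 and 18.0 in root, 214, 210.1 and 219 in stamen and 20.7, 17.2 and 20.6 in pistil (log2 fold change -3.55, SE 0.13, adjusted p = 1.34e-14). A histone H3.3-like gene (CqNL-6_010471) had 0, 0.0699 and 0 CPM in leaf, against 398, 375 and 408 in stamen. With the total library size, 28 histones and 21 cyclins and related genes were lower than in pistil, and 22 and 14 were lower than in root, against 7 and 6 with TMM. KNOTTED-1-LIKE 3 (CqNL-6_039675), a homeobox factor, was in contrast above each organ with TMM (over pistil by a log2 fold change of 1.55, and 0.49 with the total library size, under the minimum), with 93.3, 92.5 and 90.3 CPM in leaf, against 5.94, 6.94 and 8.12 in root, 22.1, 12.9 and 15.1 in stamen and 28.4, 35.3 and 30.7 in pistil.

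Defence genes went both ways by class. Pathogenesis-related proteins, chitinases and beta-1,3-glucanases were below the mean in 30 of 74 and above it in 5 (3 without leaf replicate 1 or 2, pistil replicate 2, root replicate 2 or stamen replicate 2 or 3), and lower than in root in 41. Of all genes, 21.8% were below the mean, 26.3% above it and 23.7% lower than in root. Basic endochitinase A (CqNL-6_036570) had 3 reads in leaf, against 1.21, 0.550 and 1.14 CPM in root, 7.98, 42.1 and 36.1 in stamen and 4955, 4895 and 4633 in pistil. A pathogenesis-related protein (CqNL-6_026278) averaged 0.237 CPM in leaf, against 1082 ± 129.9 in root, 0.349 ± 0.467 in stamen and 0.0589 ± 0.0691 in pistil. NBS-LRR disease resistance proteins, which sense pathogen effectors inside the cell, were above the mean in 43 of 102 and below it in 16, with 24 above each organ. That is 42.2% and 23.5%, against 26.3% and 11.1% of all genes. The RPP13-like protein CqNL-6_054094 had 44.3, 48.3 and 44.8 CPM in leaf, against 0.504, 0.720 and 0.465 in root, 0.713, 1.17 and 0.671 in stamen and 11.8, 13.5 and 11.9 in pistil (log2 fold change 4.64, SE 0.12, adjusted p = 4.68e-17). Over root and pistil the direction of this list depended on scaling. Over root, 38 were higher and 27 lower with TMM, and 30 and 42 with the total library size. Over pistil, 31 were higher and 20 lower with TMM, and 21 and 46 with the total library size.

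Several families of transcription factors were lower in leaf than in root. This held for 29 of 44 ethylene-responsive factors with 3 higher, 19 of 38 WRKY factors with 1 higher, 19 of 37 NAC factors with 1 higher, 35 of 68 bHLH factors with 13 higher and 29 of 61 MYB factors with 10 higher, against 23.7% of all genes lower and 22.4% higher. With the total library size, 29 WRKY factors were lower than in root. Against the mean, NAC factors were below in 18 and above in 5, ethylene-responsive factors in 18 and 7, WRKY factors in 11 and 5, bHLH factors in 19 and 18, and MYB factors in 14 and 11. Of all genes, 21.8% were below the mean and 26.3% above it. The bHLH factors, at 27.9% and 26.5%, were near these shares, and MYB factors had 23.0% below and 18.0% above. NAC 100 (CqNL-6_005543) had 0.383, 0.279 and 0.352 CPM in leaf, against 18.0, 21.7 and 22.3 in root, 163, 149 and 191 in stamen and 5.80, 4.64 and 6.23 in pistil. RAP2-3, an ethylene-responsive factor (CqNL-6_051180), averaged 3.96 ± 1.11 CPM in leaf, against 113 ± 8.38 in root, 35.2 ± 2.41 in stamen and 7.56 ± 1.28 in pistil (log2 fold change -2.97, SE 0.16, adjusted p = 4.82e-12). Exceptions were higher in leaf. The ethylene-responsive factor 1B (CqNL-6_014722) had 14.0, 27.7 and 30.8 CPM in leaf, with leaf replicate 1 the lowest, against at most 1.57 CPM in any other library. bHLH137 (CqNL-6_042248) had 21.7, 22.0 and 19.5 CPM in leaf, against at most 1.14 CPM elsewhere (log2 fold change 5.11, SE 0.17, adjusted p = 3.51e-15).

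Phenolic, cytochrome P450 and glutathione S-transferase lists had more genes lower than in root than higher, while antioxidant enzymes had no settled direction. Of all genes, 23.7% were lower than in root and 22.4% higher, and 21.8% were below the mean and 26.3% above it. Of 81 flavonoid and lignin enzymes, 28 were below the mean and 12 above, 49 were lower than in root and 14 higher, and 0 were above each organ. Caffeoylshikimate esterase-like CqNL-6_051264, of the lignin pathway, had 2 reads in leaf, against 51.8, 52.8 and 68.0 CPM in root, 1299.8, 1544 and 1170.3 in stamen and 9.71, 5.61 and 10.2 in pistil. Of 134 cytochrome P450 enzymes, 69 were lower than in root and 35 higher, with 44 (32.8%) below the mean (67 genes with DESeq2) and 31 (23.1%) above. Glutathione S-transferases were lower than in root in 17 of 30 and higher in 4, with 8 below the mean (14 with DESeq2) and 5 above. The transferase U17-like gene CqNL-6_012702 was a leaf gene, with 141, 127 and 169.7 CPM in leaf, no read in stamen and at most 1.44 CPM on average in the others, and parA CqNL-6_045759 was its opposite, at 0.230, 0.140 and 0.282 CPM in leaf and 89.6, 85.1 and 70.8 CPM in root. Of 44 antioxidant enzymes, 13 (29.5%) were above the mean and 11 (25.0%) below (7 without root replicate 2), close to the 26.3% and 21.8% of all genes. Against root, 16 were higher and 9 lower with TMM, and 13 and 18 with the total library size. By KEGG entry, ascorbate peroxidases (K00434) were above the mean in 12 of 15 genes and below it in 2. Of the 44 antioxidant enzymes listed by title, those above the mean included the chloroplast thioredoxin-like CDSP32 (CqNL-6_039513), which is no ascorbate peroxidase. It had 345, 322 and 343 CPM in leaf, against 0.907, 1.02 and 0.982 in root, 8.13, 8.06 and 8.73 in stamen and 11.4, 14.2 and 18.1 in pistil. Heat shock proteins and chaperones were above in 13 of 49 and below in 18. HSP90-1 (CqNL-6_037236) had 814, 588 and 542 CPM in leaf, with leaf replicate 1 the highest, against 46.4, 44.8 and 42.0 in root, 4.42, 4.40 and 4.36 in stamen and 27.7, 33.6 and 40.1 in pistil (log2 fold change 5.11, SE 0.12, adjusted p = 2.45e-17).

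Few genes of the housekeeping lists were called against the mean. Of 29 mitochondrial respiration genes, 0 were above and 2 below the mean, and of 27 proteasome subunits, 1 was above and 0 below. Their medians were 0.14 and 0.24 with TMM and -0.19 and -0.09 with the total library size, so that they have no settled direction. Against single organs, 19 mitochondrial genes were higher than in pistil with TMM and 0 with the total library size, and 16 proteasome subunits were higher than in stamen. With the total library size, 17 mitochondrial genes and 17 proteasome subunits were lower than in root, against 2 and 0 with TMM, and 11 proteasome subunits were lower than in pistil, against 0. Auxin response and transport genes had no settled direction either, with 18 above and 12 below the mean of 56 and a median of 0.03 with TMM, and 16 above, 19 below and a median of -0.30 with the total library size. Tubulins and kinesins were below the mean in 10 of 34 (29.4%) and above in 3 (8.82%). Terpene synthases were above in 4 and below in 4 of 16 (9 below with DESeq2, and 2 without root replicate 2). Cellulose and callose synthases and arabinogalactan proteins were below in 9 of 24 (37.5%) and above in 2. The Casparian strip and dirigent list was below in 9 of 37 (24.3%, and 14 genes with DESeq2) and above in 4 (10.8%). Over all genes, 21.8% were below the mean and 26.3% above it.

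The KEGG entries of the deposited annotation carry no names of their own and were read through the titles of their genes. Among 234 entries with at least 10 tested genes, those with the largest shares of genes above the mean were K03231 (elongation factor 1-alpha by title, 11 of 12), K02639 (ferredoxin, 9 of 10), K01358 (Clp protease subunits, 15 of 17) and K03686 (dnaJ homologs, 12 of 14). K03231 was above each organ in 1 gene, and K01358 in 14. K03676 (glutaredoxin) had 23 of 33 above the mean and 19 above each organ, and K16297 (serine carboxypeptidase) 20 of 31 and 9. The largest shares below the mean were in K18195 (rhamnogalacturonate lyase, 8 of 11), K10418 (Rop guanine nucleotide exchange factor, 8 of 12), K07198 (CBL-interacting protein kinase, 17 of 27) and K01166 (ribonuclease 1, 8 of 13). Calcium-transporting ATPases (K01537) were below in 14 of 25 and above in 2.

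At the extremes, 31 genes had at least 10 reads in each leaf library and 0 in the 9 others, and 92 had 0 in leaf and at least 10 in each of the 9 others. Of the 31, 5 had an informative title: a cytochrome P450 CYP72A219-like gene (CqNL-6_007452), a glutaredoxin (CqNL-6_023786), a copper chaperone for superoxide dismutase (CqNL-6_029500), aquaporin NIP2-1 (CqNL-6_038032) and psbP domain-containing protein 7 (CqNL-6_048732). Of the 92, 48 had one. Among them were 2 Rop guanine nucleotide exchange factors 12, which switch on Rop GTPases of tip growth (CqNL-6_007847 and CqNL-6_035130), 2 kinases titled FERONIA (CqNL-6_037214 and CqNL-6_044673), 2 syntaxin-71-like genes (CqNL-6_030069 and CqNL-6_042185), both AIR12 copies, and KNOTTED-1-like 6 (CqNL-6_012988). The 2 kinases titled FERONIA averaged 41.7 and 142.8 CPM in stamen, 11.2 and 12.6 in root and 1.12 and 2.74 in pistil. The study reported its CqFER genes as expressed in every organ sampled, leaf included. The title alone thus does not identify these kinases as CqFER, and their place in the family was not tested. A count of 0 in leaf allows up to 0.0722 CPM over the 3 leaf libraries (3 reads, counting error only), so that expression below that level was not detectable at this depth.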

How the data were processed

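Poly(A) RNA libraries of leaf, root, stamen and pistil (3 each) were compared, and the 3 libraries of NaCl-treated leaves were left out. The authors aligned paired-end reads by HISAT2 2.1.0 against the NL-6 assembly and counted reads per gene with HTSeq. The deposited table holds these raw read counts beside FPKM values, which the authors normalised for gene length and depth. HTSeq version, strand setting and treatment of multiply mapped reads were not given in the sources used here. Each column was assigned to a library by its name, with 0 columns of no sample. Gene titles are matches to proteins of other species in NR. No genome sequence was used.

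Counts of the 12 libraries were filtered with filterByExpr and scaled with TMM in edgeR 4.0.16 (R 4.3.3). A quasi-likelihood model with 1 mean per tissue was fitted across all genes, and leaf was contrasted with the mean of the 3 other tissues on the log scale and with each of them. P-values were adjusted after Benjamini-Hochberg over all genes tested. A gene was called at an adjusted p under 0.05 and a log2 fold change of at least 1 in size, and "in each" means that all 3 pairwise contrasts passed. Standard errors were taken from the log2 fold change and its F statistic. CPM were counts scaled to a common library size with the TMM factors and are not corrected for length, so that they compare libraries and not genes. For a gene at 0 in a tissue, a lower bound of the fold was computed from 3 reads over the 3 libraries of that tissue, which covers counting error only. The labels describe the replicates as pools of plants, and p-values measure the spread between these samples.

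The 51 gene lists were made by search words on informative gene titles. Members and lists were chosen with earlier results of these data known, and 19 lists were changed after reading the titles that matched. Lists are described by counts and medians. Genes were named by rule: the 12 titled ones of largest and the 12 of most negative log2 fold change among those called against the mean and each tissue without overlap (at least 50 CPM in leaf for high genes, at least 10 CPM in each other tissue for low genes), from each list with at least 5 tested members the 2 called genes of smallest p, and, where 50% or more of a list was called one way, the gene of smallest p called the other way. Of the low genes, 1 is not reported here. The procedure was tested on simulated data in which few genes differed in leaf, evenly up and down. Such data cannot test the scaling where many genes differ, as they do here. Alternatives were other scalings, filters and fold minimums, DESeq2 1.42.0, a replicate block, and leaving out each replicate or tissue. Tables and figures were made with Python 3.11.15, pandas 2.3.3, numpy 2.4.6, scipy 1.17.1 and matplotlib 3.10.9.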

Additional observations from a re-analysis of the deposited data

How the results depend on the processing

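The 4 counts of called genes stayed within 1.5 times their value under most settings. With the total library size, 3871 genes were lower in leaf than in each organ. Without a fold minimum, 12440 genes were lower than the mean, 6003 higher than each organ and 4163 lower than each. At a minimum log2 fold change of 2, 5573 were higher than the mean, 4258 lower than the mean, 2440 higher than each and 1351 lower than each. Leaving out 1 replicate at a time gave 9414 to 9933 genes higher than the mean, 7384 to 7867 lower than it, 3968 to 4126 higher than each organ and 2151 to 2308 lower than each. With a replicate block the counts were 9430, 7788, 3977 and 2278. Samples that share a replicate number did not deviate together (correlations of -0.09 to 0.07, 0 of 18 pairs over 0.1), so that the numbers give no pairing. For the 127 genes named by rule, 3016 of 3036 values under 24 alternatives kept their direction and side of the threshold, 20 values of 13 genes lost the call and 0 reversed. This covers the contrast with the mean alone, by which these genes were picked, so that few losses were likely. Without a fold minimum no call could be lost, and the filter of 1 CPM in 6 libraries left 115 of the 127 genes. Calls against each organ were less stable, and several named genes lost them with the total library size. Of 2448 list counts, 188 moved by more than 1.5 times. Genes with few reads in leaf limit the depth of the low calls, and a count of 0 there allows up to 0.0722 CPM.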
